A study of Mus musculus with 24 samples.

Results

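Fibroblasts of the Vhl line under the GFP label (Vhl GFP, 3 libraries) were set against wild-type fibroblasts under the same label (WT GFP, 3 libraries), so that 6 of the 24 libraries of the series form the comparison. The libraries were chosen by their titles, and no measured value was used to choose them. The cells are mouse embryonic fibroblasts, connective tissue cells taken into culture from E13.5 embryos. Per the labels both groups are controls, and the libraries of the same lines under the Cre label, where Cre is the recombinase that removes a marked stretch of DNA, are the knockouts. The other groups used here were Vhl Cre and WT Cre, and the GFP controls Rassf1a GFP and Vhl/Rassf1a GFP, with 3 libraries each. The labels give neither strain, sex, litter nor number of embryos, and do not say which parts of Vhl are altered, how GFP or Cre was brought in, or whether the 3 libraries of a group are separate cultures. The p-values below therefore measure the spread between these libraries, which may be technical. Line of origin, strain, culture and genotype cannot be told apart between Vhl GFP and WT GFP.

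The protein made from Vhl is the substrate receptor of a ubiquitin ligase and marks the alpha subunits of the hypoxia-inducible factors for breakdown, and cells that lose it turn on genes of glycolysis, blood vessel growth and matrix modification even with oxygen at hand. Differences of a control line from wild type belong to the starting state on which an effect of deletion is read. Embryonic fibroblasts are a mixed population that keeps a memory of where in the body the cells came from, held in part by the Hox transcription factors, and their growth rate, matrix output and interferon tone differ between isolates.

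Library totals were 34.7, 39.0 and 43.5 M counts in Vhl GFP, and 43.3, 36.6 and 29.9 M counts in WT GFP. Libraries of 1 group differed by more than counting error, with a chi-square per degree of freedom of 5.23 to 8.43 in Vhl GFP and 3.30 to 8.84 in WT GFP. In WT GFP the deviations of replicate 3 from its group correlated with the GC content of genes at 0.549 across 12905 genes, which are not independent. The same correlation was -0.298 and -0.419 for WT GFP replicates 1 and 2, and between -0.0815 and 0.0996 for the Vhl GFP libraries. Single libraries of 2 other groups, Rassf1a GFP replicate 1 and replicate 2 of Vhl/Rassf1a GFP, stood apart from their own groups, with chi-squares of 27.3 to 51.9 per degree of freedom. They enter the comparison of Vhl GFP with WT GFP through the shared estimate of the spread and, slightly, the scaling.

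The targeted gene was examined first, with levels in CPM (library counts scaled to a common total). Vhl (GRCm38, chr6:113623959-113631633) had 25.7, 27.6 and 26.8 CPM in Vhl GFP, against 22.5, 24.4 and 23.1 CPM in WT GFP. The Vhl GFP values lay above all WT GFP values by a small margin, and the log2 fold change of 0.19 (SE 0.09) did not pass the test (adjusted p = 0.0980). In the libraries under the Cre label Vhl was at 2.57 CPM ± 0.257 in Vhl Cre, against 23.7 CPM ± 0.862 in WT Cre (SD, n = 3 each). Rassf1 (chr9:107551555-107562267), which encodes a Ras association domain protein of the Hippo pathway, was at 24.0, 26.6 and 29.0 CPM in Vhl GFP, and at 32.3, 29.9 and 37.2 CPM in WT GFP. It was lower in Vhl GFP without overlap (log2 fold change -0.32, SE 0.09, adjusted p = 0.00925).

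Of 16573 genes tested, 5319 (32.1%) differed between Vhl GFP and WT GFP at an adjusted p under 0.05 (edgeR quasi-likelihood test, Benjamini-Hochberg adjustment over all genes). Among them 2857 (17.2%) were higher and 2462 (14.9%) lower in Vhl GFP, and the median log2 fold change of all genes was 0.01. With offsets corrected for GC content 7097 genes were called, and 41.3% of them were higher in Vhl GFP, in place of 53.7%. With no filter on expression 5211 genes were called, and 46.3% of them were higher. At least 2-fold differences were found for 855 genes (5.16%), mostly upward, with 580 genes (3.5%) higher and 275 (1.66%) lower. The values of the groups did not overlap for 8032 genes (48.5%). Below, a gene is called when it passes this test, and each list is read against these shares. Without Rassf1a GFP replicate 1 in the fit 5769 genes were called, and without Vhl/Rassf1a GFP replicate 2 it was 6064.

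Vhl Cre against WT Cre sets the same lines side by side in 6 other libraries, where Vhl is lost as well, and 7413 genes (44.7%) were called there. Of the genes called between the GFP groups, 77.8% had the same direction between the Cre groups, against 67.3% of all genes tested. A total of 3103 genes were called in the same direction in both, which is 58.3% of the GFP calls and 41.9% of the Cre calls. Another 537, or 10.1% of the GFP calls, were called in opposite directions. Of the 855 genes called at least 2-fold between the GFP groups, 672 had the same direction between the Cre groups and 498 were also called in it.

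**Figure D1:**
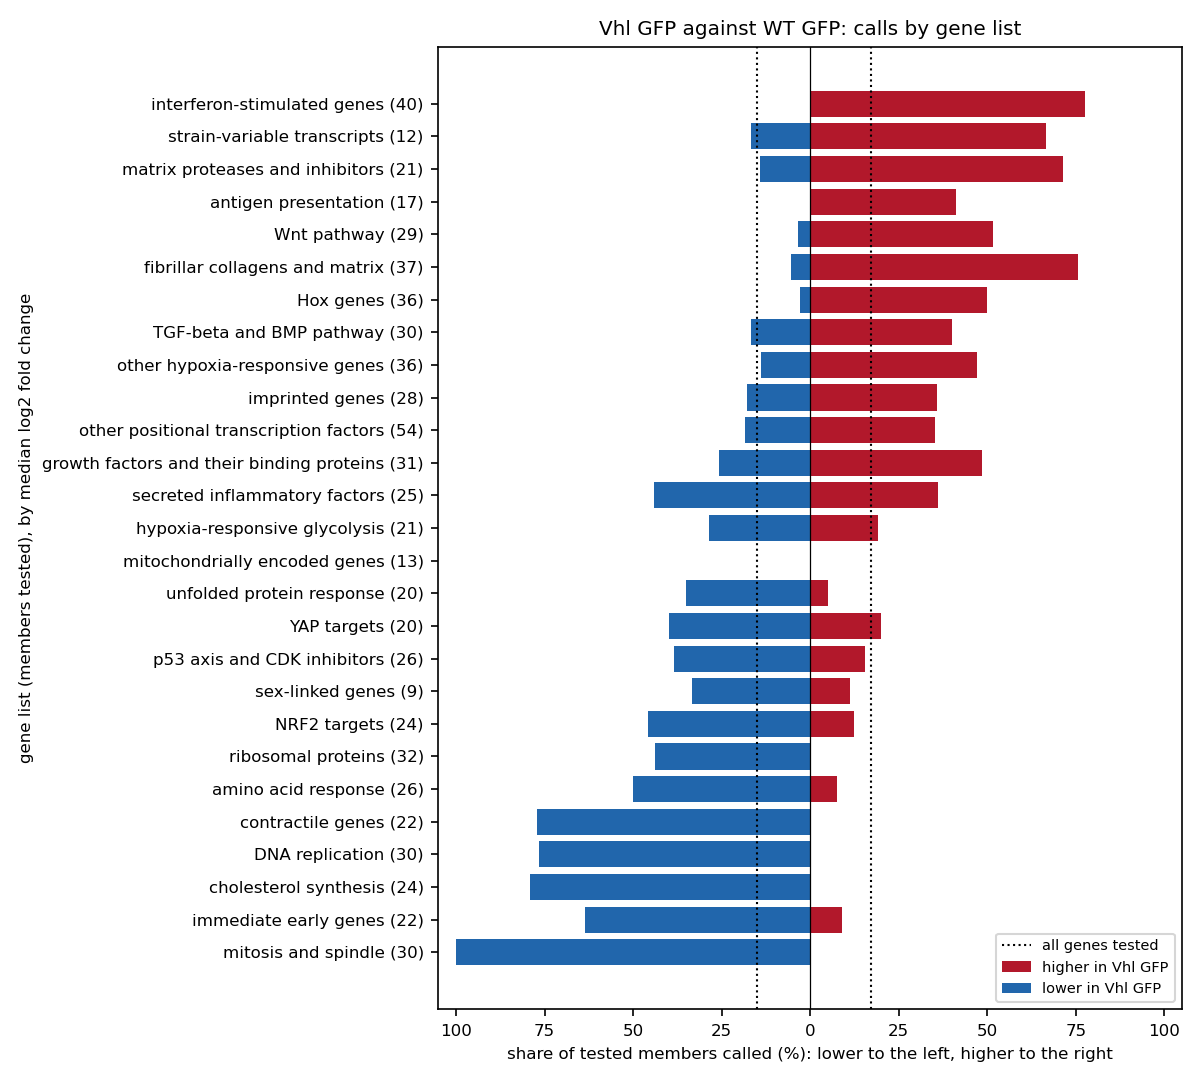
Share of tested members of each gene list called higher (to the right) or lower (to the left) in Vhl GFP than in WT GFP, with lists ordered by median log2 fold change and the number of members tested in brackets; dotted lines mark the shares over all genes tested, 17.2% higher and 14.9% lower. Interferon-stimulated, matrix and Hox genes lie mostly to the right, and mitosis, replication, contractile and cholesterol genes mostly to the left.

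Several secreted proteins were much higher in Vhl GFP. Serpina3n, an inhibitor of serine proteases released in inflammation, was at 64.8, 56.4 and 56.6 CPM in Vhl GFP, against 0.899, 0.863 and 0.672 CPM in WT GFP. Every Vhl GFP library was far above every WT GFP library (log2 fold change 6.16, SE 0.13, adjusted p = 1.46e-19), while Rassf1a GFP (23.3 CPM ± 1.36) and Vhl/Rassf1a GFP (31.2 CPM ± 3.30) lay in between. Il1rn, a secreted protein that blocks interleukin-1 receptors, had 248, 209 and 187 CPM in Vhl GFP, against 36.5, 42.9 and 36.1 CPM in WT GFP (log2 fold change 2.48, SE 0.12, adjusted p = 5.40e-13). Here Vhl/Rassf1a GFP was near wild type, at 44.7 CPM ± 7.79, and Rassf1a GFP was above it, at 63.3 CPM ± 6.17, but far below Vhl GFP. Igfbp2, which binds insulin-like growth factors, was at 380.2, 428 and 419 CPM in Vhl GFP, and at 83.9, 83.2 and 77.0 CPM in WT GFP (2.33, SE 0.10, adjusted p = 2.49e-14). It stayed apart under Cre, with 475 CPM ± 12.6 in Vhl Cre and 102 CPM ± 6.64 in WT Cre. Il1rn was lower in Vhl Cre, with 21.7 CPM ± 0.521 in Vhl Cre, against 53.9 CPM ± 4.50 in WT Cre.

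Among the other leading genes were Pdgfrl, a secreted protein related to platelet-derived growth factor receptors (log2 fold change 2.93, SE 0.11), Col14a1, a collagen of fibril surfaces (2.59, SE 0.12), and Mmp13, a collagenase, at 14.5 CPM ± 1.79 in Vhl GFP, against 2.55 CPM ± 0.409 in WT GFP. Foxd1, a forkhead factor of kidney stroma and facial mesenchyme, was at 20.8, 19.6 and 17.3 CPM in Vhl GFP, and at 3.32, 2.99 and 2.89 CPM in WT GFP (2.64, SE 0.13, adjusted p = 7.42e-13). Pitpnm3, a phosphatidylinositol transfer protein, averaged 16.0 CPM ± 2.42 in Vhl GFP, 17.2 CPM ± 1.59 in Vhl/Rassf1a GFP and 2.71 CPM ± 0.560 in Rassf1a GFP, against 1.08 CPM ± 0.246 in WT GFP. Fxyd6, a regulator of the sodium pump, was higher in Vhl GFP than in WT GFP (2.96, SE 0.22), yet both Rassf1a GFP (17.9 CPM ± 0.893) and Vhl/Rassf1a GFP (11.2 CPM ± 1.41) exceeded the 5.58 CPM ± 0.849 of Vhl GFP. Except for Il1rn, which was called lower, the genes named in these sentences were also called higher in Vhl Cre than in WT Cre.

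The deepest drop was in AI506816, a locus without a named product on chromosome 5, at 7.43, 6.82 and 6.71 CPM in Vhl GFP, against 403, 379.6 and 417 CPM in WT GFP (log2 fold change -5.84, SE 0.07, adjusted p = 1.52e-24). Rassf1a GFP (203 CPM ± 9.87) and Vhl/Rassf1a GFP (92.4 CPM ± 1.12) were intermediate, and the difference between Vhl Cre and WT Cre was -5.91. Receptors were among the rest. Cxcr6, the receptor of the chemokine Cxcl16, had 1.42, 1.78 and 1.27 CPM in Vhl GFP, against 7.95, 8.71 and 8.44 CPM in WT GFP (-2.49, SE 0.13). F2rl1, a receptor cut open by trypsin-like proteases, had 1.42, 2.25 and 3.82 CPM in Vhl GFP, against 12.0, 12.0 and 13.1 CPM in WT GFP (-2.28, SE 0.18), and no other GFP group was as low. The prostacyclin receptor Ptgir fell by 1.61 on the log2 scale, the mTOR inhibitor Deptor by 1.55 and the synaptotagmin Syt13 by 1.47. The others were the zinc finger gene Zfp429 (-2.52), Ifi27l2b (-1.75), the cornified envelope gene Sprr2k (-1.51), the sialyltransferase St3gal6 (-1.41), the ketone body enzyme Bdh1 (-1.40), Rassf6, a relative of Rassf1 (-1.39), and the methyltransferase Nnmt (-1.35). Of the lowest genes named here, Ifi27l2b (-0.32) and St3gal6 (-0.05) were not called between the Cre groups.

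**Figure D2:**
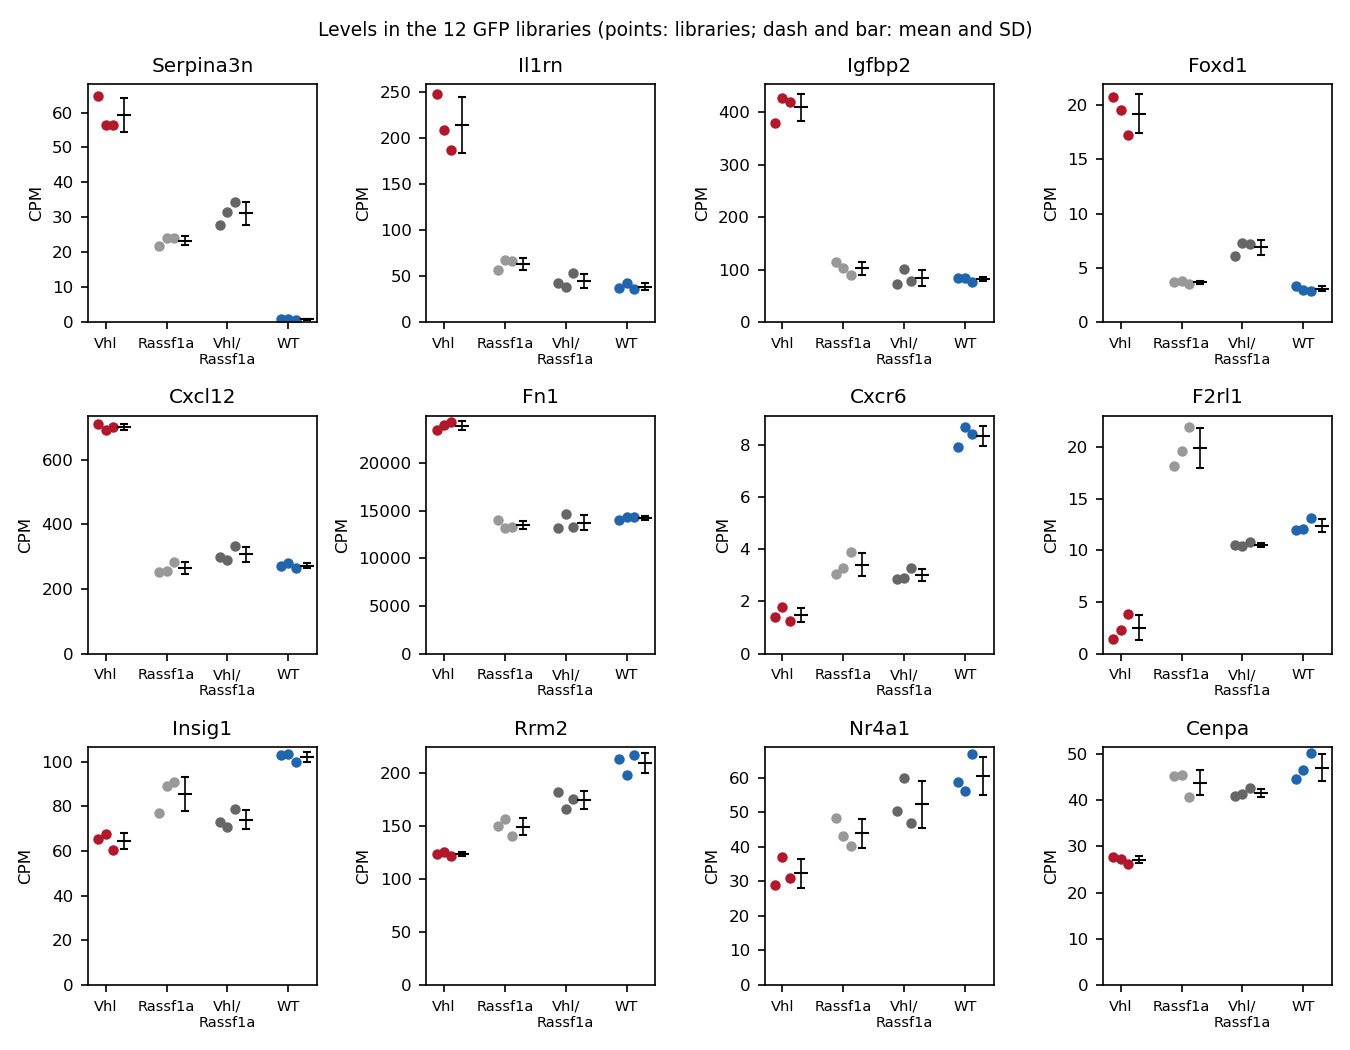
Levels in CPM of 12 genes in the 3 libraries of each GFP group, each point a library, with the mean and SD beside them. The Vhl GFP libraries are above every other GFP library for Serpina3n, Il1rn, Igfbp2, Foxd1, Cxcl12 and Fn1 and below them for Cxcr6, F2rl1, Insig1, Rrm2, Nr4a1 and Cenpa.

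Part of the upward excess lay in processed pseudogenes, copies of genes put back into the genome from spliced RNA. Of 775 tested, 61 were at least 2-fold higher and 4 at least 2-fold lower in Vhl GFP, beside 441 and 210 of 14019 protein-coding genes. Rps3a3, a copy of a gene for a small ribosomal subunit protein, had 64.5, 61.1 and 63.2 CPM in Vhl GFP, against 0.922, 0.863 and 1.08 CPM in WT GFP (log2 fold change 6.05, SE 0.16), and stood at 1.18 CPM ± 0.413 in Rassf1a GFP and 0.902 CPM ± 0.239 in Vhl/Rassf1a GFP. Atp6v0c-ps2, a copy of a proton pump gene, had 48.3, 48.8 and 48.3 CPM in Vhl GFP, against 0.968, 0.917 and 1.14 CPM in WT GFP (5.59, SE 0.12), and here Vhl/Rassf1a GFP was as high (49.9 CPM ± 4.27) while Rassf1a GFP was low (0.919 CPM ± 0.348). Rps13-ps1 was alike in the altered lines, with 18.4 CPM ± 0.170 in Vhl GFP, 18.2 CPM ± 1.37 in Rassf1a GFP and 17.7 CPM ± 1.56 in Vhl/Rassf1a GFP, against 0.850 CPM ± 0.0519 in WT GFP. Each copy thus had its own pattern over the lines. Rps15a-ps7 (log2 fold change 3.33) and Rps3a2 (2.51) were also among the 15 highest genes named by the rule.

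Among called genes, 23 were copies that could be tied to a named gene, a set chosen after the values were seen. Of these 16 were higher, and for 10 of the 16 the gene copied was called lower, for 3 it was called higher and for 3 it was not called. The 10 copies stem from 7 genes, since Rps15a and Rps3a1 have several. Hmga1b, a copy of the gene for the chromatin protein Hmga1, was at 73.3, 71.6 and 72.9 CPM in Vhl GFP and at 3.85, 3.59 and 3.66 CPM in WT GFP. Hmga1 itself had 123, 115 and 107 CPM in Vhl GFP, against 353, 314 and 395 CPM in WT GFP (log2 fold change -1.62, SE 0.09, adjusted p = 9.75e-12). Summed, the pair stood at 188 CPM in Vhl GFP, against 358 CPM in WT GFP. Rpl3-ps1 was at 71.4 CPM ± 6.61 in Vhl GFP, against 5.04 CPM ± 0.305 in WT GFP, with Rpl3, a protein of the large ribosomal subunit, at 556 CPM ± 19.5 and 899.5 CPM ± 17.8. All 23 copies kept their direction between Vhl Cre and WT Cre. The counting of reads that match several places is not given in the sources used here. Levels of near-identical genes and copies are therefore uncertain, and the part of this in the lower levels of Hmga1 and ribosomal protein genes was not tested. Of 32 ribosomal protein genes 14 were called lower and 0 higher (median -0.19), with Rplp0 at 799 CPM ± 12.6 in Vhl GFP, against 1513 CPM ± 92.8 in WT GFP.

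**Figure D3:**
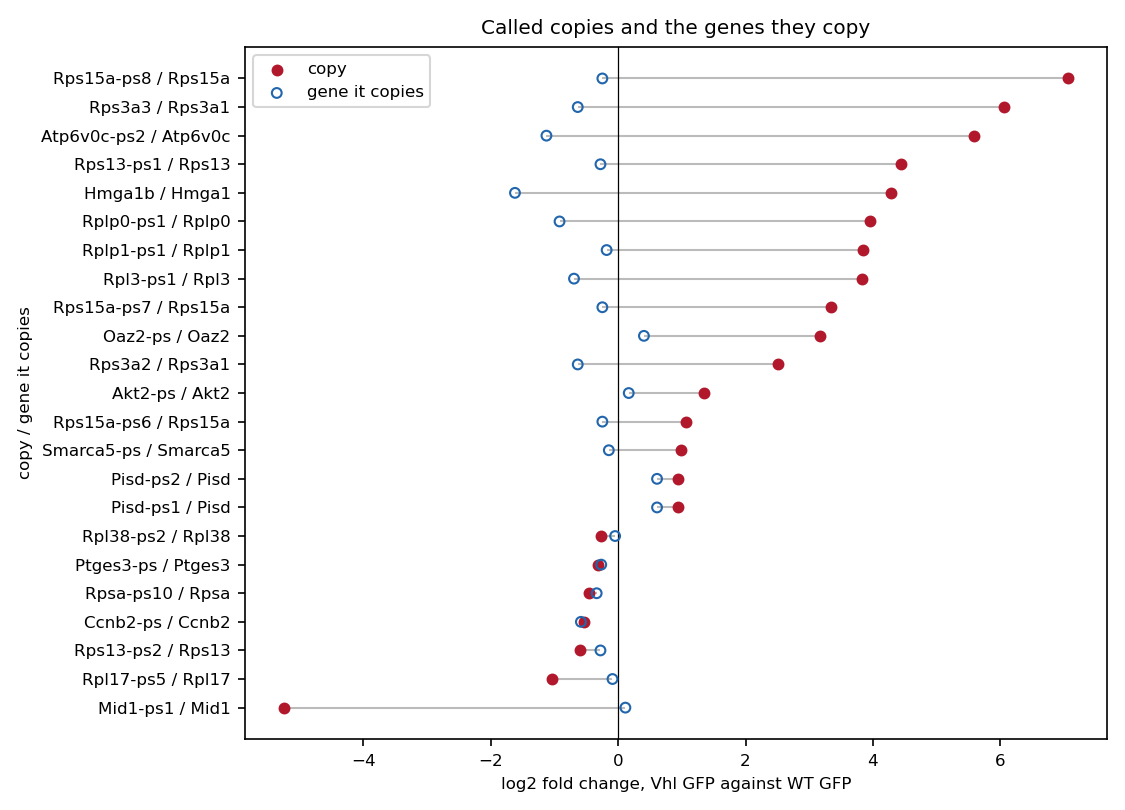
Log2 fold change in Vhl GFP against WT GFP of 23 called copies (filled) and of the gene each one copies (open), on 1 row a pair. Of 16 higher copies, 10 lie opposite a gene called lower.

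Interferon-stimulated genes, which cells switch on when interferon or foreign nucleic acid is sensed, were higher in Vhl GFP. Of 40 tested members 31 were called higher and 0 lower, with 17 at least 2-fold higher and a median log2 fold change of 0.93, beside 17.2% higher and a median of 0.01 over all genes. Xaf1, a promoter of cell death, had 64.9, 82.8 and 67.8 CPM in Vhl GFP, against 17.3, 17.5 and 11.9 CPM in WT GFP (log2 fold change 2.20, SE 0.26, adjusted p = 6.38e-07). Trim30a, a restraint on innate immune signalling, had 28.0, 39.0 and 29.4 CPM in Vhl GFP, and 9.56, 11.1 and 6.82 CPM in WT GFP (1.80, SE 0.23, adjusted p = 2.45e-06). Stat2, which carries the interferon signal to the nucleus, had 148, 169 and 149.5 CPM in Vhl GFP, against 82.0, 86.8 and 69.5 CPM in WT GFP (0.97, SE 0.18, adjusted p = 0.000216). In these genes the groups did not overlap, Vhl GFP replicate 2 was the highest library and WT GFP replicate 3 the lowest. The guanylate-binding protein Gbp2 (0.85) and Ifi44 (1.82) followed the same pattern. Without WT GFP replicate 3 the count was 23 of 40, and without Vhl GFP replicate 2 it was 23 as well.

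The summed level of the list was 1608 to 1896 CPM in Vhl GFP, 1422.5 to 1773 CPM in Rassf1a GFP and 1227 to 2259.8 CPM in Vhl/Rassf1a GFP, against 810 to 1081 CPM in WT GFP. Against the mean of Rassf1a GFP and Vhl/Rassf1a GFP, a comparison that shares the Vhl GFP libraries and in which 5054 genes (30.5%) were called, 6 members were higher and 0 lower in Vhl GFP with a median of 0.06. This became 5 members without Rassf1a GFP replicate 1, and 9 without Vhl/Rassf1a GFP replicate 2, where the median was 0.24. Both libraries were the highest of their groups in Isg15. This gene, which encodes a ubiquitin-like modifier, was at 102 CPM in Rassf1a GFP replicate 1 and 146 CPM in Vhl/Rassf1a GFP replicate 2, and at 41.1 to 75.4 CPM in the other 4 libraries. It had 67.7, 86.4 and 66.9 CPM in Vhl GFP, against 33.5, 39.4 and 21.7 CPM in WT GFP (log2 fold change 1.22, SE 0.39, adjusted p = 0.0206). Between the Cre groups the list turned round, with 2 members higher and 15 lower in Vhl Cre than in WT Cre and a median of -0.50. Eml5, a microtubule-associated protein, and Mkrn2, a RING finger protein, were high in every GFP group and low in every Cre group, as earlier results of these data had shown. Eml5 was at 39.5, 42.8 and 36.5 CPM in Vhl GFP, against 68.8, 65.8 and 95.9 CPM in WT GFP (-0.95, SE 0.13), and Mkrn2 at 55.8, 54.4 and 49.3 CPM in Vhl GFP, against 88.9, 85.1 and 87.6 CPM in WT GFP (-0.71, SE 0.11). Among the GFP libraries both genes were lowest in Vhl GFP, where the interferon list was higher than in WT GFP, and whether they move with it was not tested.

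Promoters of members called higher are shown because the interferon-stimulated response element, a DNA site bound by interferon-activated factors, holds 2 GAAA blocks with 2 bases between them. RefSeq promoters (GRCm38.p6, 250 bases before to 50 after the start) were found for 21 of the 31 called members and searched on both strands for GAAA, any 2 bases and GAAA again, where overlapping matches were allowed. Of these genes 14 (66.7%) held a match, or 15 of 26 promoters (57.7%), beside 3.44% of all 32851 promoters and 2.93% of those of genes tested. Over all tested members of the list, called or not, 17 of 28 genes (60.7%) and 18 of 34 promoters (52.9%) held a match. The match thus goes with membership of the list, and its share in called members was close to that. The capitals below mark the matches, and a match on the strand opposite to the printed one reads TTTC, any 2 bases and TTTC. All are printed 5′ to 3′ in the direction of the gene. The examples were chosen after the values were seen.
Isg15, chr4:156200769-156201068, minus strand: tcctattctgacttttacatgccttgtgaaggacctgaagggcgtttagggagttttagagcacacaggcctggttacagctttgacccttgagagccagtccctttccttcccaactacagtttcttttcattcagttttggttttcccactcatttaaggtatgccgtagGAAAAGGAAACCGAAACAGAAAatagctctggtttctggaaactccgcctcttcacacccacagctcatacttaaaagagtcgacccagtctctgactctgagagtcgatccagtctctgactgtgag
Ifit1, chr19:34640639-34640938, plus strand: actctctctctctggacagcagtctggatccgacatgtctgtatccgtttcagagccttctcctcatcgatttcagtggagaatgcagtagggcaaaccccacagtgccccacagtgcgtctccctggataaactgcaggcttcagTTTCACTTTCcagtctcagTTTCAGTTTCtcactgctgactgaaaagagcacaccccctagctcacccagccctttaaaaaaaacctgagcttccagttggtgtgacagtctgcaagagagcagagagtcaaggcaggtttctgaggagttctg
Bst2, chr8:71537423-71537722, minus strand: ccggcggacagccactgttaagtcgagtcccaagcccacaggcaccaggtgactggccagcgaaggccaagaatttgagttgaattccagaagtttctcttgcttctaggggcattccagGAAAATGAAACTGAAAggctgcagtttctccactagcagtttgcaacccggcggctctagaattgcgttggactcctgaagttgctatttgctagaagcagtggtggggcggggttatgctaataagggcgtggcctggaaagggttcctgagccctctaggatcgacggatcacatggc
Stat2, chr10:128270248-128270547, plus strand: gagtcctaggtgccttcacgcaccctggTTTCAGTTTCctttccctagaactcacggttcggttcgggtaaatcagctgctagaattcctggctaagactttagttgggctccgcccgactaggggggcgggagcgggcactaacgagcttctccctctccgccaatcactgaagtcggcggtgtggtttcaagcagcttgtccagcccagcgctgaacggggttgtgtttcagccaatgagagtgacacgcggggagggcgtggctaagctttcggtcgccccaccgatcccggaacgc
Xaf1, chr11:72301379-72301678, plus strand: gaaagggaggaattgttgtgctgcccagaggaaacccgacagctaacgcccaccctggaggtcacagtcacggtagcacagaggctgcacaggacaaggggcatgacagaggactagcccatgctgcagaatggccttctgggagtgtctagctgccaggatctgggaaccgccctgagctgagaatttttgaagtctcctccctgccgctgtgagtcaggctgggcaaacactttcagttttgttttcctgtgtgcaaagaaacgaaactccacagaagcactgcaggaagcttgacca
The Isg15 promoter holds 3 overlapping matches, with first bases 78, 72 and 66 before the start. Those of Ifit1, which binds foreign RNA, begin 104 and 85 bases before the start, those of Bst2, which tethers budding viruses, 130 and 124 bases before it, and that of Stat2 222 bases before it. The window of Xaf1, which had the largest fold change named here from the list, held no match. Ifit1 was at 68.0, 93.2 and 73.2 CPM in Vhl GFP, against 31.9, 32.2 and 17.8 CPM in WT GFP, and Bst2 at 118, 162 and 145 CPM in Vhl GFP, against 69.0, 74.1 and 61.0 CPM in WT GFP.

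**Figure D4:**
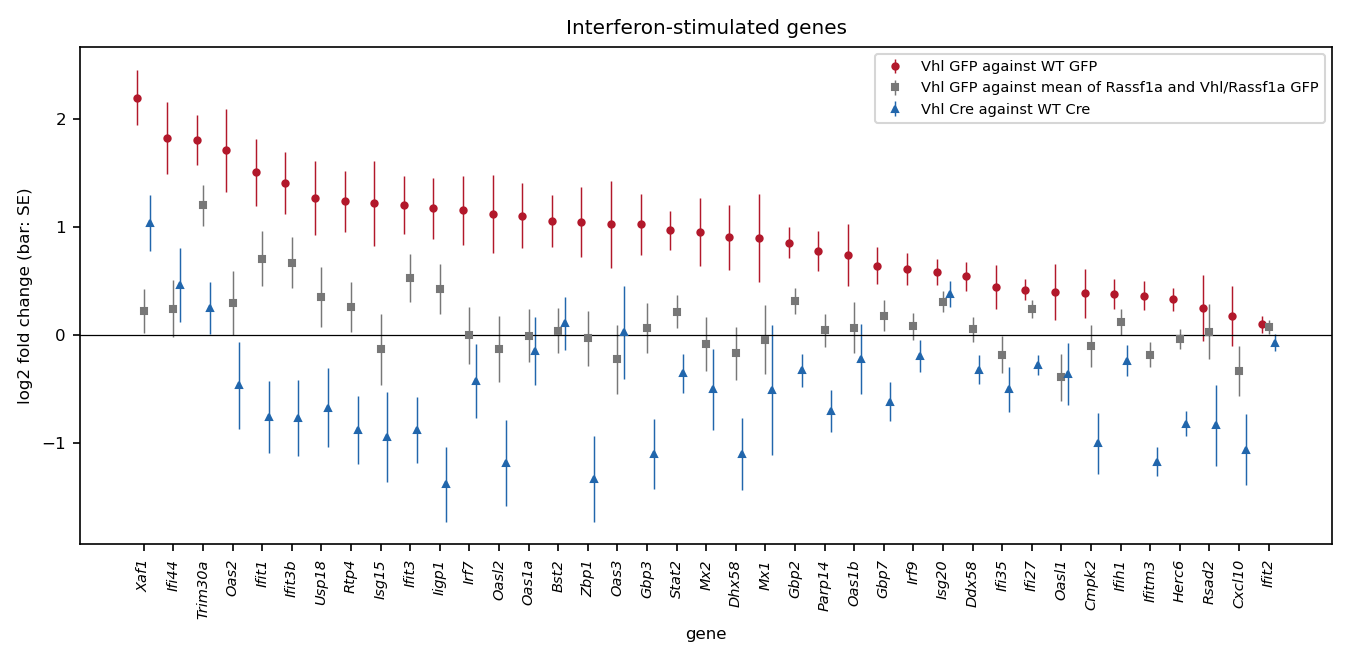
Log2 fold changes with SE of interferon-stimulated genes, 1 member left out, in Vhl GFP against WT GFP (circles), in Vhl GFP against the mean of the other altered GFP groups (squares, sharing the Vhl GFP libraries) and in Vhl Cre against WT Cre (triangles). Over the whole list of 40 the median is 0.93 for the circles' comparison, 0.06 for the squares' and -0.50 for the triangles'.

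Of 17 antigen presentation genes tested, which serve class I and class II molecules, 7 were called higher and 0 lower (median 0.52). The 7 all belong to class I presentation, and the class II members tested were below 1 CPM on average. H2-T23, a non-classical class I chain, had 32.3, 34.2 and 31.0 CPM in Vhl GFP, against 11.8, 12.2 and 10.8 CPM in WT GFP (log2 fold change 1.48, SE 0.17, adjusted p = 3.81e-07). B2m, the light chain of all class I molecules, had 731, 819.7 and 752 CPM in Vhl GFP, and 572, 574 and 489 CPM in WT GFP (0.49, SE 0.06). The peptide loading genes Tapbp (0.58) and Tap2 (0.72) and the class I chain H2-K1 (0.62) were higher without overlap. Secreted inflammatory factors split, with 9 of 25 higher and 11 lower (median -0.01). Cxcl12, a chemokine that retains blood-forming cells, had 712, 691 and 701 CPM in Vhl GFP, against 271, 279.8 and 266 CPM in WT GFP (1.37, SE 0.05, adjusted p = 2.77e-15). Tnfrsf11b, the decoy receptor that restrains osteoclasts, was higher by the same 1.37, and Ptgs2, the inducible cyclooxygenase, was at 325, 376 and 325 CPM in Vhl GFP, against 611, 578 and 567 CPM in WT GFP (-0.77, SE 0.09).

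Genes of cell division were lower. All 30 mitosis and spindle genes were called lower in Vhl GFP (median log2 fold change -0.50), beside 14.9% lower over all genes, and of 30 DNA replication genes 23 were called lower and 0 higher (median -0.36). Cenpa, the histone that marks centromeres, had 27.7, 27.3 and 26.3 CPM in Vhl GFP, against 44.5, 46.4 and 50.2 CPM in WT GFP (-0.80, SE 0.06, adjusted p = 4.33e-10). Anln, an organiser of the cleavage furrow, had 118, 118 and 119.6 CPM in Vhl GFP, against 201, 196 and 191 CPM in WT GFP (-0.72, SE 0.05). The spindle assembly factor Tpx2 fell by 0.53, the kinesin Kif20a by 0.62 and the checkpoint kinase Bub1b by 0.57. Among replication genes Rrm2, a subunit of the enzyme that makes deoxynucleotides, had 123, 125 and 122 CPM in Vhl GFP, and 213, 198 and 216 CPM in WT GFP (-0.76, SE 0.05, adjusted p = 5.58e-11). The helicase genes Mcm6 (-0.36) and Mcm4 (-0.27), the replication factor gene Mcm10 (-0.54) and the polymerase gene Pole (-0.45) were lower without overlap. Against the mean of Rassf1a GFP and Vhl/Rassf1a GFP, which shares the Vhl GFP libraries, all 30 mitosis genes were again lower (median -0.40), and likewise without either library that stood apart. Between Vhl Cre and WT Cre all 30 were lower as well, with a median of -1.32. The bulk libraries do not tell fewer dividing cells from less of these transcripts in each cell.

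Inhibitors of the cell cycle gave a mixed picture, with 4 of 26 genes of the p53 axis and the CDK inhibitors higher and 10 lower (median -0.13). Without WT GFP replicate 1 the number lower was 5, and without WT GFP replicate 3 or Vhl GFP replicate 3 it was 6. Cdkn2b, which encodes the CDK4 and CDK6 inhibitor p15, had 126, 135 and 127 CPM in Vhl GFP, against 78.8, 83.9 and 87.6 CPM in WT GFP (log2 fold change 0.63, SE 0.06, adjusted p = 9.97e-09). Its neighbour Cdkn2a, which encodes p16 and p19Arf, had 110.0, 114 and 107 CPM in Vhl GFP, and 63.4, 64.9 and 76.6 CPM in WT GFP (0.69, SE 0.11, adjusted p = 2.42e-05). Both loci rise in cultured fibroblasts as they near the end of their life span. Pmaip1, a trigger of apoptosis downstream of p53, was at 31.8 CPM ± 2.39 in Vhl GFP, against 66.6 CPM ± 3.34 in WT GFP (-1.07), and Mdm2, the ubiquitin ligase of p53, fell by 0.29. Immediate early genes, the first to answer growth factors, were mostly lower, with 14 of 22 lower and 2 higher (median -0.40). Nr4a1, an orphan nuclear receptor, had 29.1, 37.0 and 30.9 CPM in Vhl GFP, against 58.7, 56.1 and 66.8 CPM in WT GFP (-0.90, SE 0.10), and Dusp6, a phosphatase that restrains ERK, had 30.3, 31.3 and 30.1 CPM in Vhl GFP, against 54.0, 51.7 and 54.5 CPM in WT GFP (-0.80, SE 0.05). Fos (-0.78), Myc (-0.76) and Fosl1 (-0.90) moved with them.

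Matrix genes were mostly higher. Of 37 fibrillar collagen and matrix genes 28 were called higher and 2 lower (median log2 fold change 0.38). Fn1, which encodes fibronectin, was at 23505, 24056 and 24377 CPM in Vhl GFP, against 14060.0, 14387 and 14396 CPM in WT GFP (0.75, SE 0.05, adjusted p = 1.69e-11). Fmod, which encodes the collagen-binding proteoglycan fibromodulin, had 294, 339.8 and 293 CPM in Vhl GFP, against 77.2, 75.1 and 74.3 CPM in WT GFP (2.03, SE 0.07). Elastin, from Eln, was at 116 CPM ± 2.33 in Vhl GFP and at 114 CPM ± 11.2 in Rassf1a GFP, against 35.8 CPM ± 1.89 in WT GFP, and the elastic fibre protein Fbln5 was higher by 0.49. Tnc, which encodes the anti-adhesive protein tenascin C, went the other way, with 2136 CPM ± 147 in Vhl GFP, against 3446 CPM ± 32.6 in WT GFP (-0.69, SE 0.05). Between the Cre groups this list was evenly split, with 12 members higher and 15 lower in Vhl Cre. Proteases of the matrix and their inhibitors followed, with 15 of 21 higher and 3 lower (median 0.53). Timp3, an inhibitor bound to the matrix, had 1424, 1410.3 and 1285 CPM in Vhl GFP, against 637, 659.7 and 639.8 CPM in WT GFP (1.09, SE 0.05, adjusted p = 3.01e-14), and Timp2 (0.59), the gelatinase Mmp2 (0.88) and the thrombin inhibitor Serpine2 (0.85) were also higher.

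Contractile genes were lower, with 17 of 22 called lower and 0 higher (median log2 fold change -0.32). Acta2, the smooth muscle actin of myofibroblasts, was at 2786, 2987 and 3037 CPM in Vhl GFP, and at 4324, 4108 and 4493 CPM in WT GFP (-0.55, SE 0.06, adjusted p = 3.80e-07). Tropomyosin from Tpm1 (-0.36), smooth muscle myosin from Myh11 (-0.61), Lmod1 (-0.52) and calponin from Cnn1 (-0.52) were lower without overlap. YAP targets, which respond to cell tension and crowding, split with 4 of 20 higher and 8 lower (median -0.11). Ankrd1 was at 78.2 CPM ± 5.45 in Vhl GFP, against 111 CPM ± 5.00 in WT GFP (-0.51), and the tissue factor gene F3 fell by 0.46, while Tgfb2, a growth factor of the TGF-beta family, was at 98.6, 104 and 93.0 CPM in Vhl GFP, against 52.1, 55.6 and 48.8 CPM in WT GFP (0.91, SE 0.09).

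Hox genes, which record position along the body axis, were called higher in 18 of 36 and lower in 1 (median log2 fold change 0.30), with a clear order by place in the cluster. Of the 21 members with paralogue numbers 1 to 8, used from the hindbrain into the trunk and so ahead of the later numbers, 15 were higher and 0 lower (median 0.77). Of the 15 with numbers 9 to 13, used towards the tail and the tips of the limbs, 3 were higher and 1 lower (median 0.07), a split made after the values were seen. Hoxa4 had 3.05, 3.39 and 2.70 CPM in Vhl GFP, against 1.04, 0.998 and 1.31 CPM in WT GFP (1.46, SE 0.16, adjusted p = 2.86e-07). Hoxb6 had 15.1, 16.4 and 16.2 CPM in Vhl GFP, against 7.37, 7.96 and 9.18 CPM in WT GFP (0.97, SE 0.08, adjusted p = 2.51e-09), and Hoxc4 had 8.71, 9.46 and 7.63 CPM in Vhl GFP, against 4.68, 4.10 and 4.10 CPM in WT GFP (1.00, SE 0.10). At the other end Hoxa13 was at 10.3 CPM ± 0.904 in Vhl GFP and 10.5 CPM ± 0.136 in WT GFP, and Hoxd13 at 63.5 CPM ± 5.29 in Vhl GFP and 67.7 CPM ± 1.48 in WT GFP, with overlapping values. The member called lower was Hoxc10 (-0.29, adjusted p = 0.0416), whose groups overlapped. No Hox gene was called lower with the replicate block or with only the groups compared. The same held without any single WT GFP library and without Vhl GFP replicate 2 or 3. The number lower was 2 without Vhl GFP replicate 1, 2 with GC-corrected offsets and 3 with these and the replicate block. The B cluster had 7 of 8 members higher and the A cluster 7 of 11, beside 3 of 9 in the C cluster and 1 of 8 in the D cluster.

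The split by paralogue number was also seen between the Cre groups. Vhl Cre against WT Cre, which shares no library with the GFP comparison, called 18 of the 21 members numbered 1 to 8 higher and 0 lower (median 0.72), and 4 of the other 15 higher and 2 lower (median 0.19). Against the mean of Rassf1a GFP and Vhl/Rassf1a GFP, which reuses the Vhl GFP libraries, 21 of 36 were higher in Vhl GFP and 0 lower. Hoxa5, for one, was at 15.9 CPM ± 1.22 in Vhl GFP, 6.39 CPM ± 1.91 in Rassf1a GFP and 9.01 CPM ± 0.657 in Vhl/Rassf1a GFP, against 7.13 CPM ± 0.621 in WT GFP. Other factors tied to body regions moved both ways, with 19 of 54 higher and 10 lower (median 0.12). Beside Foxd1, Foxc1, needed for eye and vessel tissue, was at 39.1, 37.2 and 33.3 CPM in Vhl GFP, against 19.1, 16.9 and 18.9 CPM in WT GFP (1.00, SE 0.09). Pax9 (1.43) and Pax1 (1.10), factors of the vertebral column and pharynx, and Zic1 (0.87), a factor of the dorsal neural tube, were higher too.

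**Figure D5:**
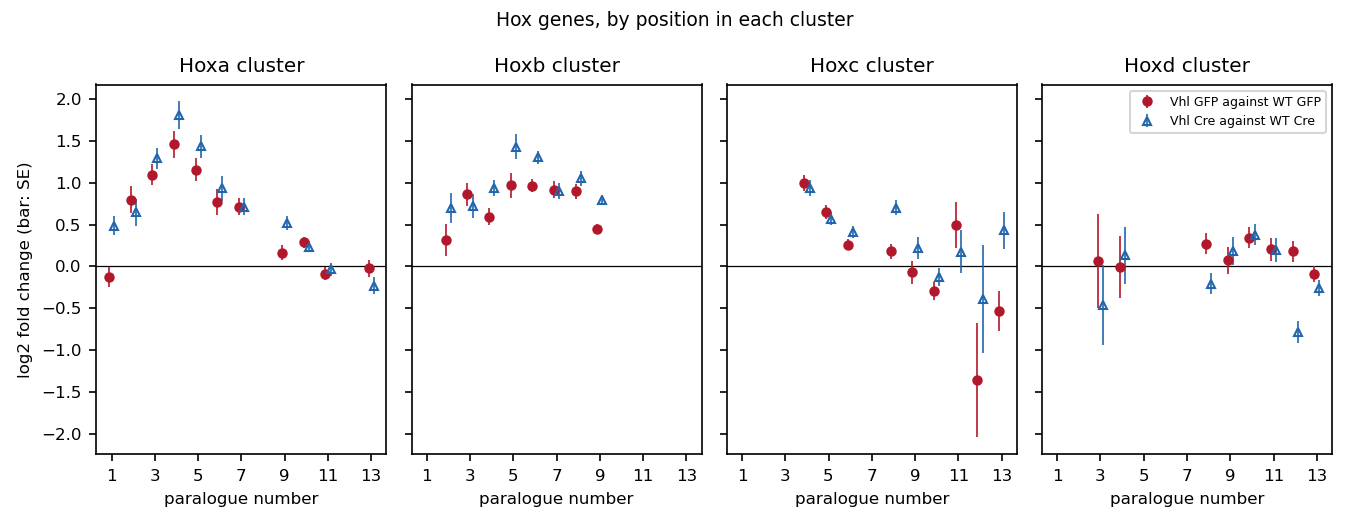
Log2 fold changes with SE of 36 Hox genes by paralogue number in each cluster, for Vhl GFP against WT GFP (filled) and Vhl Cre against WT Cre (open). Members numbered 1 to 8 have a median of 0.77 with GFP and 0.72 with Cre, and members numbered 9 to 13 one of 0.07 with GFP and 0.19 with Cre.

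Wnt pathway genes were called higher more often than lower. Of 29 tested 15 were higher and 1 lower (median log2 fold change 0.46). Rspo2, which amplifies Wnt signals, had 149.5, 158 and 141 CPM in Vhl GFP, against 69.7, 62.5 and 65.1 CPM in WT GFP (1.18, SE 0.06, adjusted p = 2.82e-12). Sfrp1, a secreted Wnt antagonist, was at 113 CPM ± 11.1 in Vhl GFP, against 48.7 CPM ± 3.82 in WT GFP (1.22, SE 0.08), so agonists and antagonists of the pathway were both among the members that were higher. The receptor Fzd1 (0.82) and the antagonists Dkk3 (0.92) and Sfrp4 (2.59, at 2.87 CPM ± 0.160 in Vhl GFP) joined them. Of 30 TGF-beta and BMP genes 12 were higher and 5 lower (median 0.23), with Tgfbi, a matrix protein induced by TGF-beta, at 136 CPM ± 7.21 in Vhl GFP, against 65.6 CPM ± 3.57 in WT GFP, the activin subunit Inhbb (0.80), the latent TGF-beta binding protein Ltbp2 (0.70) and the receptor Tgfbr2 (0.45). Growth factors and their binding proteins had 15 of 31 higher and 8 lower (median 0.01). Fgf10, a signal to overlying epithelium, had 54.1, 54.5 and 46.8 CPM in Vhl GFP, against 15.4, 13.3 and 14.0 CPM in WT GFP (1.86, SE 0.11), and Igfbp3 was higher by 1.71. Among 28 imprinted genes 10 were higher and 5 lower (median 0.14). Mest was at 42.2 CPM ± 2.79 in Vhl GFP, against 17.1 CPM ± 0.248 in WT GFP, and the neighbours H19 (0.55) and Igf2 (0.47), which are normally read from opposite parental chromosomes, were both higher.

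Glycolysis genes of the hypoxia response moved both ways, while its other genes were more often higher than lower. Of 21 hypoxia-responsive glycolysis genes 4 were higher and 6 lower (median log2 fold change -0.03), while Vhl Cre against WT Cre gave 19 higher and 1 lower (median 1.13). The number lower was 3 without WT GFP replicate 3 or without Vhl GFP replicate 2. The glucose transporter Slc2a1 had 142, 144 and 154 CPM in Vhl GFP, against 179, 178 and 186 CPM in WT GFP (-0.30, SE 0.06), and Pfkfb3, a regulator of glycolytic flux, had 64.4, 57.1 and 62.1 CPM in Vhl GFP, against 42.1, 44.2 and 41.4 CPM in WT GFP (0.52, SE 0.05). Of 36 other hypoxia-responsive genes 17 were higher and 5 lower (median 0.17), against 34 and 1 between the Cre groups (median 1.87). Car9, a carbonic anhydrase almost silent without hypoxic signalling, had 2.29, 2.66 and 2.72 CPM in Vhl GFP, and 2.56, 3.16 and 3.13 CPM in WT GFP (-0.19, SE 0.15, adjusted p = 0.361), with overlapping values. Egln3, an oxygen-sensing prolyl hydroxylase, was lower, at 16.1, 16.9 and 16.9 CPM in Vhl GFP, against 24.3, 23.1 and 22.4 CPM in WT GFP (-0.48, SE 0.06). The members that were higher included enzymes of collagen maturation: the prolyl hydroxylases P4ha1 (0.38) and P4ha2 (0.47) and the crosslinking enzyme Lox, at 3439, 3309.5 and 3157 CPM in Vhl GFP, against 1846, 1949 and 1812 CPM in WT GFP (0.82, SE 0.10). The growth factor Vegfa was higher by 0.34.

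Cholesterol synthesis genes were mostly lower. Of 24 tested 19 were called lower and 0 higher (median log2 fold change -0.37). Insig1, which restrains sterol-sensing transcription factors in the endoplasmic reticulum, had 65.5, 67.5 and 60.3 CPM in Vhl GFP, against 103, 103 and 99.7 CPM in WT GFP (-0.66, SE 0.06, adjusted p = 4.22e-09). The groups did not overlap, nor did they for the synthesis enzymes Cyp51 (-0.63) and Nsdhl (-0.46). Amino acid response genes had 13 of 26 lower and 2 higher (median -0.22), with the factor Atf4 at 161 CPM ± 8.47 in Vhl GFP, against 218 CPM ± 3.70 in WT GFP, and lower levels of the arginine transporter Slc7a1 (-0.68), Mthfd2 (-0.50) and Psat1 (-0.42), while the proline enzyme Pycr1 was higher (0.60). Genes of the unfolded protein response had 7 of 20 lower and 1 higher (median -0.11), among them the chaperone Hspa5 at 1042 CPM ± 21.2 in Vhl GFP, against 1407 CPM ± 38.7 in WT GFP. NRF2 targets had 11 of 24 lower and 3 higher (median -0.16), among them the quinone reductase Nqo1 (-0.74), Srxn1 (-0.45) and Gclm (-0.57). The 13 mitochondrially encoded genes had log2 fold changes of -0.77 to 0.63 (median -0.04) and did not pass the test, while 9 were lower in Vhl Cre than in WT Cre.

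The labelled cell type was checked by its markers. The 12 fibroblast markers summed to 33308 to 35243 CPM in Vhl GFP, against 25538 to 28530 CPM in WT GFP, with 7 called higher and 2 lower. Col3a1 (log2 fold change 0.56) and Col1a2 (0.48) were higher, the receptor Pdgfrb was at 415 CPM ± 2.15 in Vhl GFP, against 296 CPM ± 4.35 in WT GFP, and the members called lower were Pdgfra (-0.27) and Thy1 (-0.21). The 8 macrophage markers summed to 4.91 to 5.57 CPM in Vhl GFP and 4.51 to 5.68 CPM in WT GFP, with Adgre1 and C1qb at 0 in all 6 libraries. Only 4 were tested, of which 1 was called higher, at least 2-fold, and 0 lower. Of the 8, 6 were under 1 CPM in all 6 libraries, and the part of such cells in the interferon list was not tested. The 8 endothelial markers summed to 9.93 to 12.7 CPM in Vhl GFP, against 15.6 to 16.1 CPM in WT GFP, with Tie1 at 0 and Kdr, the main VEGF receptor, at 4.26 CPM ± 0.454 in Vhl GFP, against 9.58 CPM ± 0.540 in WT GFP. Of 7 endothelial markers tested 1 was called higher and 2 lower (median -0.57). Epithelial markers summed to 37.9 to 38.9 CPM in Vhl GFP, against 75.9 to 94.5 CPM in WT GFP, nearly all of it Krt19 (-1.18), with Epcam and Cdh1 under 1 CPM in every library. Of 6 mesothelium markers 4 were called higher and 1, again Krt19, lower (median 1.01). The members called higher averaged at most 6.23 CPM in either group, the value of Msln in Vhl GFP, and the list summed to 42.1 to 52.2 CPM in Vhl GFP, against 73.7 to 94.2 CPM in WT GFP. Cartilage markers summed to 653 to 796 CPM in Vhl GFP, against 306 to 397 CPM in WT GFP, most of it Col2a1 at 629, 750.2 and 606 CPM in Vhl GFP and 317, 274 and 363 CPM in WT GFP (1.06, SE 0.15), with Snorc at 0. Of 6 tested 5 were called higher, and 3 without any single WT GFP library or without Vhl GFP replicate 1 or 2. The part of cartilage-like cells in the matrix lists was not tested. Map2, a neural microtubule protein, was higher by 1.70, while the neural markers summed to 562 to 576 CPM in Vhl GFP and 513 to 569.5 CPM in WT GFP. Of 7 neural markers tested 1 was called higher and 2 lower (median -0.15).

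Transcripts that tell embryos or strains apart also differed. Xist, expressed from the inactive X of female cells, had 263, 269.7 and 255 CPM in Vhl GFP, against 151, 177 and 136 CPM in WT GFP (log2 fold change 0.76, SE 0.18, adjusted p = 0.00246). Of 8 Y chromosome genes tested 4 were called lower. The largest drop was in the copy Mid1-ps1, at 0.0635 CPM in Vhl GFP, against 2.43 CPM in WT GFP (-5.24), and at -5.32 between the Cre groups. Kdm5d was at 12.9 CPM ± 0.563 in Vhl GFP, against 19.3 CPM ± 1.19 in WT GFP (-0.58, SE 0.08), with Eif2s3y at -0.35 and Ddx3y at -0.31. Eif2s3y and Ddx3y lost the call without WT GFP replicate 1 or 2 or any single Vhl GFP library. This leaves 1 of the 9 sex-linked genes, a list without Mid1-ps1, lower in place of 3. The median of Y genes was 0.15 between the Cre groups. Xist and Y-linked transcripts were thus both present in these groups, and their part in other differences was not tested. Among 12 transcripts known to vary between mouse strains 8 were higher and 2 lower (median 0.79). Nnt, a mitochondrial transhydrogenase disrupted in one common substrain, was at 78.8 CPM ± 2.24 in Vhl GFP, against 52.4 CPM ± 0.698 in WT GFP (0.59), and Apobec3, a cytidine deaminase that restricts retroviruses, at 32.1, 27.8 and 28.7 CPM in Vhl GFP, against 12.8, 12.6 and 10.5 CPM in WT GFP (1.30, SE 0.08). Wdfy1 was higher by 0.85 and the insulin-degrading enzyme Ide lower (-0.66). Ifi202b, an interferon-inducible DNA-binding protein, had 26, 47 and 45 counts in Vhl GFP and 0 in each WT GFP library, which is at least 37.5-fold higher with a floor of 3 counts over the WT GFP group, and reached 64.4 CPM ± 5.43 in Vhl/Rassf1a GFP. Between the Cre groups 7 of these transcripts were higher and 2 lower in Vhl Cre (median 0.37), where the interferon list had 2 higher and 15 lower, and the part of strain in the interferon list was not tested.

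By position the differences were spread over the genome. Autosome medians ran from -0.04 on chromosome 13 to 0.02 on chromosome 4, the highest, and the share of genes called from 27.0% on chromosome 7 to 37.8% on chromosome 6, which carries Vhl. Within 1 Mb of Vhl 7 of 27 genes (25.9%) were called, 2 higher and 5 lower, with 39.6% called from 1 to 5 Mb, 40.3% from 5 to 20 Mb and 37.7% farther away. Those called within 1 Mb were Srgap3 (log2 fold change 0.24), which steers cell migration, and the kinase gene Camk1 (0.17), with Fancd2 (-0.55), a repair gene beside Vhl, Tatdn2 (-0.31), Irak2 (-0.30), an interleukin-1 receptor kinase, Ttll3 (-0.33) and the histamine receptor Hrh1 (-1.05). Around Rassf1 on chromosome 9 the share called was 31.7% within 1 Mb and 31.6% to 34.3% beyond it. Genes called higher had a median GC content of 51.0% and those called lower 48.5%, beside 49.7% over the genes tested.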

How the data were processed

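RNA from 24 libraries of mouse embryonic fibroblasts was isolated with a NucleoSpin kit and made into TruSeq stranded libraries, per the labels' protocols. Trimmomatic 0.38, STAR 2.5.2b and the build GRCm38 are named in the submitters' processing notes. The authors deposited 1 table of raw counts per gene with 45706 gene IDs, matched to symbols for 45143. How reads were assigned to genes, and whether by strand, is not given in the sources used here. Reads of a gene and its antisense partner, or of near-identical copies, may therefore not be told apart.

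Genes were kept by edgeR 4.0.16 (filterByExpr, at least 10 counts, total at least 15), which left 16573. One quasi-likelihood model with TMM scaling was fitted to 8 groups of 3 libraries (16 residual degrees of freedom) in R 4.3.3, and p-values of each comparison were adjusted over all genes by Benjamini-Hochberg, with 0.05 as the threshold. CPM use TMM library sizes. The floor given for a gene without counts covers counting error only, and library totals of 29.9 to 55.8 M counts set it. The SE of a log2 fold change was derived from the statistic of the quasi-likelihood test, and so holds the spread between libraries. Alternatives were DESeq2 1.42.0 (its size factors, and its Wald test), no filter, GC-corrected offsets, a replicate block, only the groups compared, and each library of the groups compared left out. The fit was tested on simulated data.

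Named were Vhl, Rassf1, Eml5 and Mkrn2, the 15 highest and 15 lowest called genes (at least 5 CPM in the higher group, no overlap, no clone name), up to 5 called members of each list by smallest adjusted p, and called genes within 1 Mb of Vhl. Some genes that this rule names are not reported here. Isg15, Ifit1, Bst2, Hoxa5, Hoxa13, Hoxd13, Hoxc10, Car9, Vegfa, Pdgfra, Thy1 and the copies were chosen after their values were seen. The members and the 38 gene lists were chosen with earlier results of these data known. The sample labels, which name embryonic fibroblasts, were followed, although the series' design text refers to kidney tubule cells.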

Additional observations from a re-analysis of the deposited data

Results flagged for a closer look

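By the interaction term of the edgeR quasi-likelihood model, the line difference with Cre departed from that with GFP for 3846 genes (23.2%). Of these 1773 were higher and 2073 lower. All 30 mitosis and spindle genes and 32 of 40 interferon-stimulated genes were called lower. Of 21 hypoxia-responsive glycolysis genes 20 were called higher and 1 lower. Il1rn and Rassf1 were flagged among the named genes, but were not the only ones. For Il1rn the log2 difference of Vhl from WT was -1.31 with Cre and 2.48 with GFP, so the Cre value minus the GFP value was -3.79. For Rassf1 it was 0.45 with Cre and -0.32 with GFP, a change of 0.77.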

How the results depend on the processing

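The count of genes called between Vhl GFP and WT GFP was 5319. It was 5356 with DESeq2 size factors, 5362 with the DESeq2 Wald test, 5211 with no filter, 6223 with only the groups compared, 4906 among protein-coding genes and 855 at least 2-fold. Leaving out 1 Vhl GFP or WT GFP library gave 4356 to 4778. GC-corrected offsets gave 7097. Pairing by replicate number was not apparent between Vhl GFP and WT GFP, where deviations of same-numbered libraries correlated at 0.05, -0.01 and 0.03. Between Vhl Cre and WT Cre these correlations were 0.25, 0.29 and 0.03, and those of differently numbered libraries ran from -0.38 to 0.18. Whether the libraries were handled in pairs is not given in the labels. The replicate block gave 5161 calls, or 7014 with GC-corrected offsets. Against the mean of Rassf1a GFP and Vhl/Rassf1a GFP only the groups compared gave 3103 calls, in place of 5054; the cause was not tested. The share of GFP calls with the same direction between the Cre groups, 77.8%, was 78.9% with no filter. It was 77.5% to 79.4% with 1 library of Vhl GFP, WT GFP, Vhl Cre or WT Cre left out. The range of autosome medians was 0.0545 to 0.0757, highest without WT GFP replicate 3. Interferon-stimulated genes called higher numbered 23 to 31 with 1 Vhl GFP or WT GFP library left out. They numbered 32 without Rassf1a GFP replicate 1 and 34 without Vhl/Rassf1a GFP replicate 2. Of 189 called named genes, 175 kept direction and call under all these settings. Ribosomal protein genes called lower went to 31 with GC-corrected offsets, 28 with no filter and 27 with only the groups compared, in place of 14. Under GC-corrected offsets unfolded protein response genes called lower numbered 15 in place of 7, glycolysis genes 11 in place of 6, matrix genes 6 in place of 2 and sex-linked genes 6 in place of 3. Sex-linked genes called lower were also 6 with only the groups compared and 5 with no filter, but 1 without WT GFP replicate 1 or 2 or any 1 of the Vhl GFP libraries. With only the groups compared 12 antigen presentation genes were higher, in place of 7. Cartilage markers called higher were 3 in place of 5 without any 1 of the WT GFP libraries, or without Vhl GFP replicate 1 or 2. Growth factors called lower were 5 in place of 8 without WT GFP replicate 2.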
